A study of Mus musculus with 4 samples.

Results

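The proteasome is the protease that degrades proteins marked with ubiquitin, and its subunits are encoded by genes whose mouse symbols start with Psm. Members were the genes of the deposited table whose Ensembl identifier maps to a protein-coding symbol made of Psm, a letter from a to g and a number. There were 47 of them among 32948 genes. The annotation holds 48 such genes, and Psma8, a testis-specific core subunit, was not analysed here. By textbook role, the 47 were 31 subunits of the constitutive 26S particle (7 of the alpha ring, 7 of the beta ring, 6 ATPases and 3 other subunits of the base, and 8 of the lid), 3 immunoproteasome subunits, the thymus subunit Psmb11, 3 assembly chaperones of the base, 4 assembly chaperones of the core, 4 activators and the inhibitor Psmf1.

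The core of the particle is a barrel with outer alpha rings, which gate the entrance, and inner beta rings, which hold the proteolytic sites. A regulatory particle caps the barrel: ATPases of the base unfold the substrate and thread it inward, and the lid removes its ubiquitin. Interferon induces alternative catalytic subunits and the activator PA28, which change the peptides made for antigen presentation. The subunits work in fixed proportion within the particle, so the transcripts of the complex form a natural group to follow across cells.

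Messenger RNA was measured in cells of the ascending aorta and arch of Wnt1-Cre;Rosa26-mTmG mice. In this reporter, cells carry membrane tdTomato until Cre acts and membrane GFP afterwards, and Wnt1-Cre marks the neural crest lineage, to which much arch smooth muscle belongs. Cells of 1 female sample, and cells of 2 male samples that were pooled, were separated by colour, which gave 4 libraries. Each library was labelled as vascular smooth muscle cells, although the sort used the fluorescent proteins alone. All 4 groups therefore share the genotype and tissue and differ in sex and in colour. The labels used here give no age and no treatment. No combination of sex and colour was replicated, and sex cannot be told apart from suspension.

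Library totals ran from 10094167 counts in male GFP to 13911111 in female tdTomato, and 3 counts, the level that a count of 0 allows, were worth 0.201 to 0.319 CPM (the count as a rate per library total, after scaling between libraries). Where 4 values follow each other here and below, they are those of female GFP, of female tdTomato, of male GFP and of male tdTomato. A count of 10 or more was reached by 12008, 16227, 9517 and 15669 genes. Smooth muscle markers were detected in all libraries, with 8 of 8 above 0 and summed levels of 12069 to 16573 CPM. The 8 endothelial markers summed to 16.5 and 12.7 CPM in female and male GFP, where 1 and 6 of them were at 0, against 384 and 255 CPM in the tdTomato libraries. The 8 fibroblast markers summed to 4399, 4821, 1923 and 5589 CPM, with male GFP the lowest, and 3 of them were lower in GFP by 2-fold or more in each pair, among them Pdgfra at 0, 68.6, 0.426 and 61.9 CPM. Lymphocyte markers were low apart from Ptprc, the leukocyte phosphatase CD45, at 65.4 CPM in male tdTomato, where Cd3e was at 0. Macrophage markers, of which 6 of 8 were matched, summed to 30.5, 27.3, 0.426 and 76.1 CPM. In female GFP that sum came from Cd14 at 24.1 CPM and Csf1r at 6.41, with the other 4 markers at 0, and 4 of the 6 were lower in GFP by 2-fold or more in each pair. Schwann cell markers, of which 5 of 6 were matched, summed to 127, 8.23, 109 and 11.7 CPM, and erythroid markers to at most 0.268 CPM in any library. Endothelial markers, most macrophage markers and some fibroblast and Schwann cell markers thus differed between the colours in both suspensions, and their part in the differences below was not tested. In such bulk libraries, fewer cells of a type and less RNA per cell cannot be told apart.

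Summed over all 47 genes, proteasome transcripts made up 0.486% and 0.416% of the scaled counts of the female GFP and tdTomato libraries, and 0.344% and 0.36% of those of the male ones. The lowest and the highest sum were closer together than the values of most single members. In the male GFP library Psme4 alone, which encodes the activator PA200, took 25.4% of the summed level, against 2.95% to 3.09% in the other 3 libraries. The 31 constitutive subunits summed to 4495, 3720, 2513 and 3174 CPM.

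**Figure D1:**
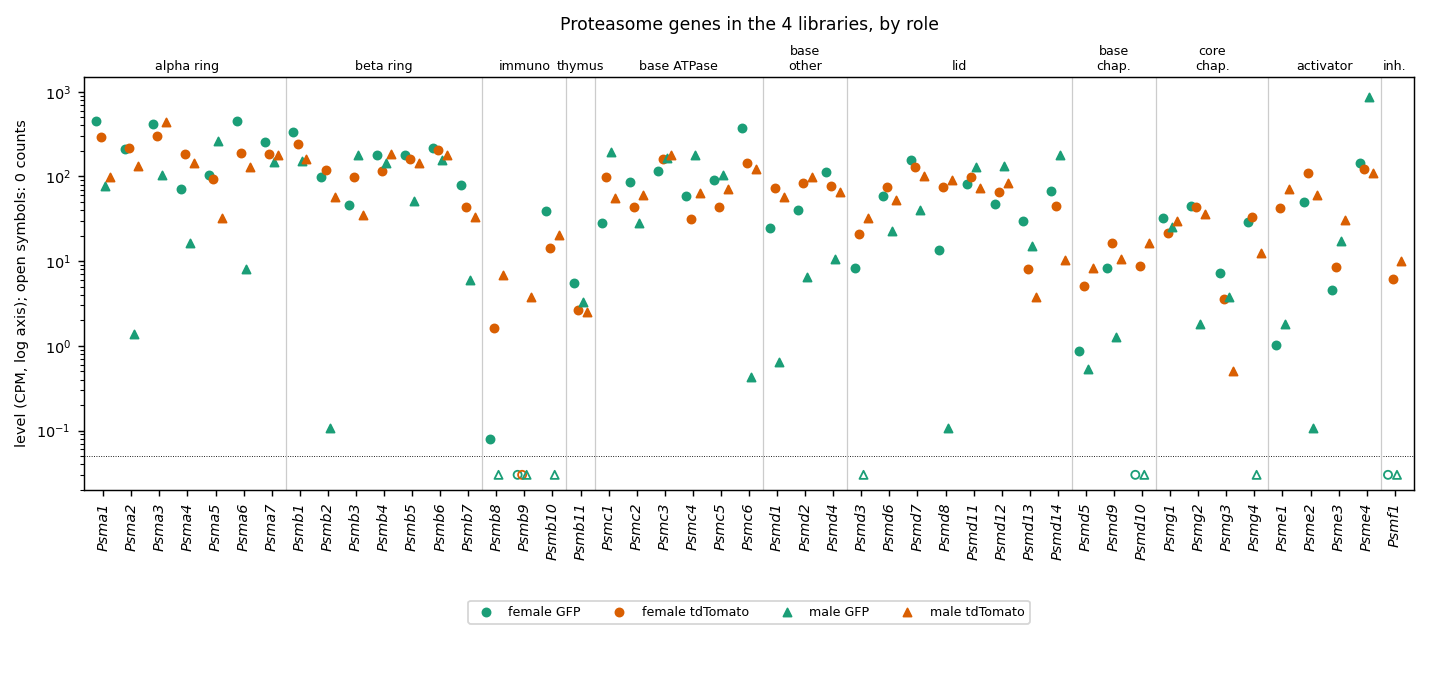
Level of each of the 47 proteasome genes in the 4 libraries, in CPM on a log axis, by role; each symbol is 1 library, and open symbols under the dotted line are at 0 counts. The male GFP triangles lie far below the other libraries for many genes, 7 of them at 0, and far above them for Psme4, at 876 CPM.

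The first comparison set GFP cells, with a past of Wnt1-Cre activity, against tdTomato cells sorted beside them. Psme1, Psmd10 and Psmf1, which encode a subunit of the activator PA28, a chaperone of the base and the inhibitor PI31, were far below their tdTomato levels in both GFP libraries. Psme1 (ENSMUSG00000022216) measured 1.03, 42.3, 1.81 and 70.3 CPM, so that both GFP libraries were near the bottom of its range. The GFP and tdTomato values did not overlap, and the fold was 41.1 lower in female GFP (95% interval 23.8 to 77.5) and 38.8 lower in male GFP (24.1 to 66.9). These intervals, here and below, are exact binomial ones and cover counting error only. Psmd10 (ENSMUSG00000031429) measured 0 CPM in both GFP libraries, 8.76 in female tdTomato and 16.5 in male tdTomato. It was thus at least 36.9-fold lower in female GFP and at least 51.8-fold lower in male GFP, taking 3 counts as the most that a library at 0 allows. Psmf1 (ENSMUSG00000032869) was also at 0 in both GFP libraries, against 6.15 CPM in female tdTomato and 10.1 in male tdTomato, so that it was at least 25.9-fold and at least 31.8-fold lower.

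With the suspension as a block, the quasi-likelihood test of edgeR, with Benjamini-Hochberg adjustment over 15055 genes, called 0 of the 46 members that passed the filter on low counts. It called 0.0% of all genes, the smallest adjusted p of a member being 0.577. At an unadjusted 0.05 level edgeR gave 3 members, all lower in GFP (Psmf1 at 0.0389, Psmd10 at 0.0458 and Psmb8 at 0.0493), against 8.33% of all genes lower in GFP at that level. That number rests on single libraries. Leaving out female GFP, or male GFP, raised it and added members higher in GFP, and the number over all genes rose as well. Such fits leave 1 library in an arm. DESeq2 on the same design called 2 members, Psmd10 with an adjusted p of 0.0149 and Psmf1 with 0.0283, both lower in GFP, where it called 7.51% of all genes lower. Psme1 had an adjusted p of 0.0611 with DESeq2 and 0.664 with edgeR. With limma-voom 0 members passed. All 3 members with an unadjusted p under 0.05 passed the filter through their tdTomato libraries alone, so they had to differ, and their count is no support for a difference of the group. The design leaves 2 pairs and 1 residual degree of freedom. The p-values rest on how far the colour ratio differs between 2 suspensions, which here may be biological or technical. The tests also share information on spread over genes, so a p-value does not follow the 2 pairs of a member alone.

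The deposited table has no sequences, but the start regions of these genes can be set beside each other. RefSeq (GRCm38.p6) gives a window from 250 bases before to 50 after the start for 40 of the 47 members. The windows of Psme1, Psmd10 and Psmf1 are printed with that of Psmb6, a catalytic core subunit with much the same level in all 4 libraries, to show what the letters ahead of such genes look like. They lie at chr11:70525107-70525406 (plus strand) for Psmb6, chr14:55578244-55578543 (plus) for Psme1, chrX:140956662-140956961 (minus) for Psmd10 and chr2:151741261-151741560 (minus) for Psmf1, and capitals mark a match to 1 of 2 motifs on either strand, the antioxidant response element core TGANNNNGC or the interferon-stimulated response element core GAAANNGAA.
Psmb6: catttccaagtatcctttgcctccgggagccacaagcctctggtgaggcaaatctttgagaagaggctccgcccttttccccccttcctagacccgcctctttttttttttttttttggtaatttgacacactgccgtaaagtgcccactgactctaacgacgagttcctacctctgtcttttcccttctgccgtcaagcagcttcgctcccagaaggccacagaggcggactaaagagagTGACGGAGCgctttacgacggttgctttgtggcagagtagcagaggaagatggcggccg
Psme1: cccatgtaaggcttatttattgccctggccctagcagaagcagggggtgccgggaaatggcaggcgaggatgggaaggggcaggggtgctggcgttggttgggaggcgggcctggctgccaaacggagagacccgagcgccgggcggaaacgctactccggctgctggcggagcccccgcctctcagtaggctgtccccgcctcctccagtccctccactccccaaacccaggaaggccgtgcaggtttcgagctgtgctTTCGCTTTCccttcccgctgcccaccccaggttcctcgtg
Psmd10: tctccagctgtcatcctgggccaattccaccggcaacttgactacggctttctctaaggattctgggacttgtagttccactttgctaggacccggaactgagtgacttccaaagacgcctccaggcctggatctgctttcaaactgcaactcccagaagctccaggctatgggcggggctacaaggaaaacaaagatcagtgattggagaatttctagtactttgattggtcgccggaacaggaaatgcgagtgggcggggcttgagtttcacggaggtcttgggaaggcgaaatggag
Psmf1: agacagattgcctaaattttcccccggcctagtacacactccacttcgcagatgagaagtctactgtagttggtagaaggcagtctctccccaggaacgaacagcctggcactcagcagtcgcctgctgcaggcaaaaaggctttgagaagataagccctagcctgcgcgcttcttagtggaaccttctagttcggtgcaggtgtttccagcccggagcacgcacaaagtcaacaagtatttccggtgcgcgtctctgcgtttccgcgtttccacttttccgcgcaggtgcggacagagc

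Psmb6 holds 1 match to the antioxidant motif, just ahead of its start, and Psme1 holds 1 match to the interferon motif, written here on the opposite strand. The windows of Psmd10 and Psmf1 hold neither set of letters. Over the 40 windows, TGANNNNGC was found in 22 (55.0%) against 41.4% of 27025 promoters of the same length. GAAANNGAA was found in 6 (15.0%) against 8.57%, and CCAAT, the CCAAT box, in 14 (35.0%) against 37.9%. No printed window holds both of the marked motifs, and a match is a description of the sequence only.

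Over all tested members, 13 of 46 (28.3%) were lower in GFP by 2-fold or more in the female pair and 7 (15.2%) were higher by as much, where 37.8% and 22.0% of all tested genes were. In the male pair 26 (56.5%) were lower and 8 (17.4%) higher, against 50.0% and 21.5% of all genes. The median log2 ratio of GFP over tdTomato was 0.04 for the female and -1.41 for the male pair, and over all tested genes it was -0.27 and -1.0. Scaling by library totals alone turned the sign of the female median, to -0.18. That scaling moved the median of all genes by -0.21 for the female and -0.20 for the male pair, and DESeq2's size factors moved it by 0.12 and 0.22. Ratios smaller than these shifts, such as those of Psmb5, Psmb6 and Psme4 in the female pair, therefore have no fixed direction. Each of these values has 1 library on each side, so none has a test.

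Members lower in GFP by 2-fold or more in both pairs numbered 11 (23.9%), close to the 22.9% of all tested genes. They were the alpha subunit Psma4, the immunoproteasome subunit Psmb8, the base subunits Psmd1 and Psmd2, the lid subunits Psmd3 and Psmd8, the base chaperones Psmd5 and Psmd10, both PA28 subunits Psme1 and Psme2, and Psmf1. One member, the lid subunit Psmd13, was at least 2-fold higher in GFP in both pairs, which is 2.17% of members against 5.17% of genes. Members at least 2-fold apart in opposite directions in the pairs numbered 6 (13.0%), against 19.2% of genes. Of these 3 shares, the first was near that of all genes and the other 2 were below it. With DESeq2's size factors in place of TMM scaling, 3 members were at least 2-fold higher in both pairs.

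**Figure D2:**
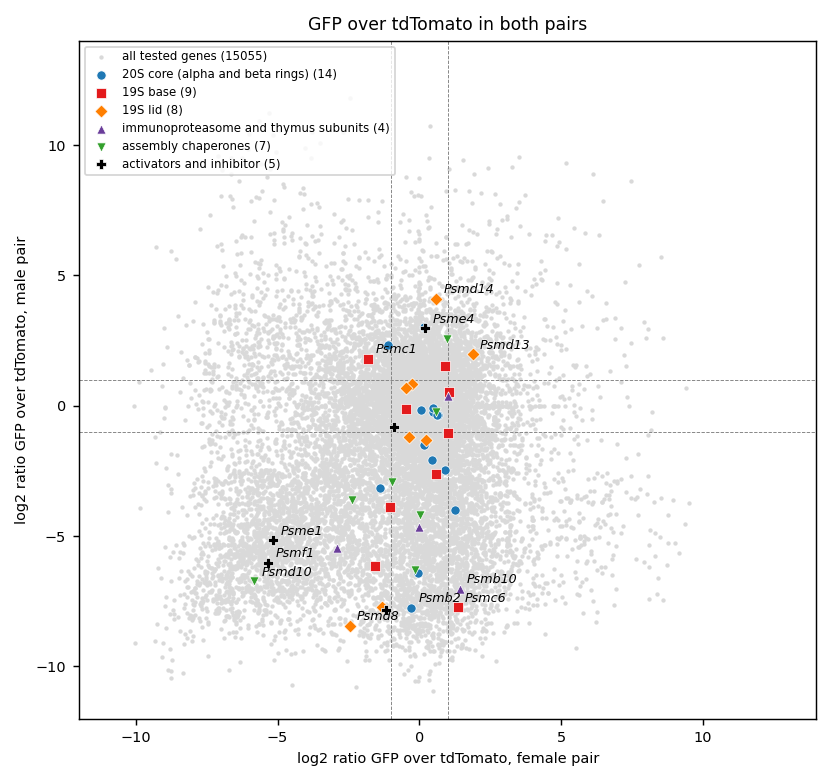
Log2 ratio of GFP over tdTomato in the female pair (horizontal axis) and the male pair (vertical axis), with a prior count of 2; coloured symbols are the 47 proteasome genes by role, grey points the 15055 tested genes, and dashed lines mark 2-fold. The proteasome genes lie from -5.83 to 1.88 in the female pair and from -8.44 to 4.11 in the male pair, inside the cloud of all genes.

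Of the alpha ring genes, 5 of 7 were within 2-fold in the female pair and 2 of 7 in the male pair. Its 7 genes had a median log2 ratio of 0.46 in the female pair, with 1 at least 2-fold lower and 1 higher, and of -2.10 in the male pair, with 4 lower and 1 higher. Over all tested genes, 37.8% were lower and 22.0% higher by as much in the female pair, and 50.0% and 21.5% in the male pair. Psma7, the gene of this ring with the highest level per length (a mean of 211 CPM per kilobase of transcript), measured 258, 185, 149 and 179 CPM. Ranks per length, here and below, are by transcript length and can change with coding length. By coding length, Psma3 was the highest of the constitutive subunits in both tdTomato libraries. Psma2, the lowest per length with a mean of 48.2 CPM per kilobase, measured 210, 218, 1.38 and 132 CPM. The male GFP library thus stood 95.4-fold under its tdTomato partner (interval 55.6 to 179), where the female pair was 1.04-fold apart (0.987 to 1.09). Psma6 measured 455, 189, 7.98 and 131 CPM, higher in GFP by 2.41-fold in the female pair and lower by 16.4-fold in the male pair. Psma5 went the other way in the male pair, with 104, 93.2, 263 and 32.7 CPM, and was 8.05-fold higher in male GFP (7.28 to 8.92). Psma4 alone in this ring was lower in GFP by 2-fold or more in both pairs, at 72.0, 186, 16.3 and 146 CPM. Psma3 was 1.38-fold higher in female GFP and 4.28-fold lower in male GFP, and Psma1 is described with the sexes below.

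Of the 7 beta genes, 1 was at least 2-fold lower in GFP and 0 higher in the female pair, and 3 were lower and 1 higher in the male pair. The shares of all tested genes were 37.8% lower and 22.0% higher in the female pair, and 50.0% and 21.5% in the male pair. The structural subunit Psmb2 (ENSMUSG00000028837) measured 97.3, 118, 0.106 and 56.6 CPM. It thus had 1 count in male GFP against 787 in male tdTomato, while the female libraries differed 1.21-fold (1.13 to 1.31). Psmb3, a neighbour in the ring, measured 45.5, 98.0, 177 and 35.5 CPM, 2.15-fold lower in female GFP and 5.00-fold higher in male GFP. Psmb1 was within 2-fold in each pair, at 331, 240, 151 and 160 CPM, as was Psmb4 at 181, 117, 144 and 184 CPM.

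The 3 catalytic sites sit on Psmb5, Psmb6 and Psmb7, which cut after hydrophobic, acidic and basic residues. Psmb5 measured 180, 160, 50.7 and 146 CPM, 1.13-fold higher in female GFP (1.06 to 1.19) and 2.87-fold lower in male GFP (2.6 to 3.18). Psmb6, with the highest level per transcript length of all 47 genes (a mean of 236 CPM per kilobase), measured 214, 205, 157 and 178 CPM. By coding length, Psma3 ranked above it in both tdTomato libraries. The log2 ratios of GFP over tdTomato for Psmb6 were 0.06 and -0.18, a mean of -0.06 ± 0.17 (SD, n = 2 pairs). Psmb7, the lowest of the ring per length, measured 80.2, 43.3, 5.96 and 33.5 CPM, higher in female GFP by 1.85-fold (1.68 to 2.05) and lower in male GFP by 5.62-fold (4.25 to 7.56).

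Immunoproteasome subunits replace these 3 after interferon, Psmb8 in place of Psmb5, Psmb9 in place of Psmb6 and Psmb10 in place of Psmb7. Psmb8 measured 0.0792, 1.61, 0 and 6.83 CPM, so that GFP was below tdTomato in both suspensions, and it stood at 1 count and at 0 in the GFP libraries. Psmb9 was at 0 in 3 libraries and measured 3.81 CPM (53 counts) in male tdTomato, where reads of Tap1, which overlaps it on the other strand, cannot be set apart from its own, although Tap1 itself was listed at 0 there. Psmb10 had a different distribution, 38.6, 14.3, 0 and 20.3 CPM, with the highest level in female GFP and no count in male GFP. Male GFP therefore had 0 counts for all 3.

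Per length, Psmb8 made up 0.0242% of the sum of Psmb8 and Psmb5 in female GFP and 0.551% in female tdTomato. The same share was 0 in male GFP, where 3 counts would allow up to 0.347%, and 2.53% in male tdTomato. Psmb9 was at 0 beside Psmb6 in female GFP, female tdTomato and male GFP, which allows shares of up to 0.0656%, 0.0577% and 0.12%, and its share was 1.25% in male tdTomato. Psmb10 made up 29.8%, 22.6% and 34.9% of the sum with Psmb7 in female GFP, female tdTomato and male tdTomato, and 0 in male GFP, where up to 4.53% is allowed. Male tdTomato thus had the highest share for each of the 3 pairs, and it was also the library with Ptprc at 65.4 CPM and with the highest macrophage sum; the part of these cells in the shares was not tested.

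**Figure D3:**
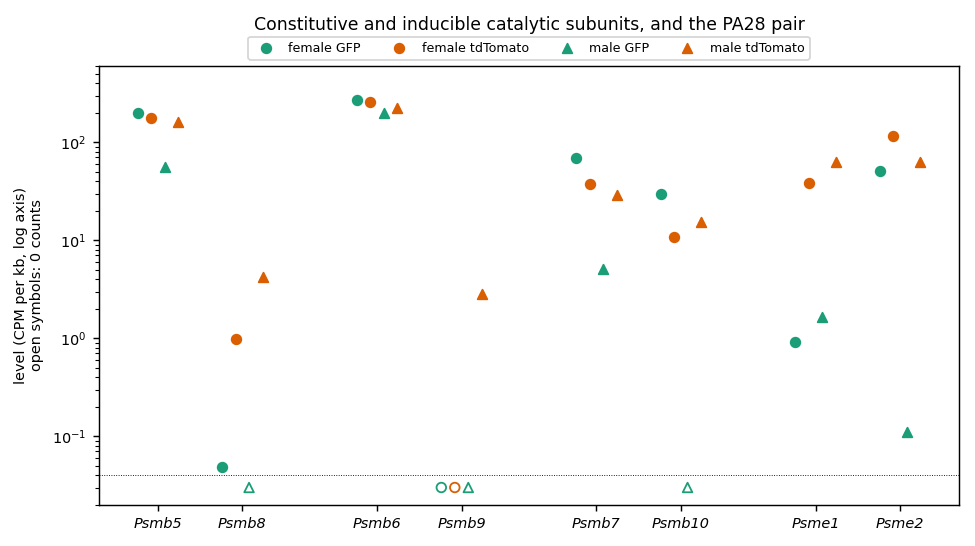
Level in CPM per kilobase of transcript, on a log axis, of the 3 constitutive catalytic subunits beside their immunoproteasome counterparts, and of the PA28 subunits; each symbol is 1 library, and open symbols are at 0 counts. Psmb8 and Psmb9 lie far below Psmb5 and Psmb6 in every library, while Psmb10 lies much closer to Psmb7 in all libraries but male GFP.

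The thymus subunit Psmb11, known from cortical thymic epithelium, was low throughout, at 5.54, 2.68, 3.30 and 2.52 CPM. It was 2.07-fold higher in female GFP (1.39 to 3.14) and 1.31-fold higher in male GFP, with an interval from 0.782 to 2.19 that includes no difference.

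The 6 ATPases of the base form a ring of different subunits, and their transcripts did not move together. Psmc6 (ENSMUSG00000021832) measured 374, 145, 0.426 and 124 CPM, the highest ATPase in female GFP and the lowest in male GFP. It was 2.58-fold higher in female GFP (2.45 to 2.71) and 292-fold lower in male GFP (114 to 1074), on 4 counts there. Psmc1 measured 28.3, 99.2, 192 and 55.2 CPM and reversed the other way, 3.51-fold lower in female GFP (3.12 to 3.95) and 3.49-fold higher in male GFP (3.20 to 3.80). Psmc2, the lowest of the 6 per length, measured 87.0, 43.3, 28.4 and 59.6 CPM, also with opposite directions. Psmc3, the highest per length, was even, at 116, 162, 166 and 181 CPM. Psmc4 and Psmc5 were higher in GFP in both pairs, Psmc4 by 1.86-fold and 2.85-fold and Psmc5 by 2.09-fold and 1.46-fold.

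The other 3 base genes encode the scaffold subunits Psmd1 and Psmd2 and the ubiquitin receptor Psmd4. Psmd1, the lowest per length, measured 24.8, 73.2, 0.639 and 56.8 CPM, 2.95-fold lower in female GFP (2.6 to 3.36) and 89.0-fold lower in male GFP (40.7 to 243). Psmd2 measured 40.6, 82.9, 6.49 and 98.0 CPM, lower in GFP by 2.04-fold and 15.1-fold. Both scaffold genes were thus lower in GFP in both suspensions. Psmd4, the highest per length, measured 114, 77.0, 10.6 and 66.1 CPM, and its direction differed between the suspensions.

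Of the 8 lid genes, 2 were lower in GFP by 2-fold or more in each pair, where 22.9% of all tested genes were. Psmd8 (ENSMUSG00000030591), a late-joining structural subunit, measured 13.7, 76.0, 0.106 and 91.1 CPM. It was 5.55-fold lower in female GFP (4.72 to 6.55) and 856-fold lower in male GFP on 1 count, which leaves an interval from 153 to 33842. Psmd3, a lid scaffold subunit, measured 8.24, 20.9, 0 and 32.7 CPM, 2.53-fold lower in female GFP (2.02 to 3.19) and at least 102-fold lower in male GFP. In these 2 genes GFP lay below tdTomato in both suspensions, by far more in the male one.

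Psmd14 (ENSMUSG00000026914) encodes the metalloprotease that cuts ubiquitin off the substrate. It measured 66.8, 44.5, 179 and 10.2 CPM, 1.5-fold higher in female GFP (1.36 to 1.67) and 17.5-fold higher in male GFP (14.8 to 20.9). Psmd13 (ENSMUSG00000025487), the lowest lid gene per length, measured 30.0, 8.03, 15.1 and 3.74 CPM and was 3.74-fold (3.04 to 4.63) and 4.04-fold (2.92 to 5.67) higher in GFP. The 2 pairs differed little for Psmd13, at 1.93 ± 0.06 for the mean log2 ratio (SD, n = 2 pairs) with an adjusted p of 1.0 in edgeR's quasi-likelihood test. Psmd13 overlaps Sirt3 on the other strand, so reads of the 2 genes cannot be told apart. Psmd7, the highest lid gene per length, measured 155, 130, 40.7 and 101 CPM. Psmd6, Psmd11 and Psmd12, the remaining lid genes, were within 2-fold in the female pair and between 2.32-fold lower (Psmd6) and 1.77-fold higher (Psmd11) in male GFP.

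Because the 31 constitutive subunits belong to 1 particle, their evenness within a library was also described. Per kilobase of transcript, the SD of their log2 levels was 1.69 and 1.38 in the female GFP and tdTomato libraries, and 3.44 and 1.45 in the male ones. With coding length in place of transcript length, an alternative chosen after seeing the data, the SDs were 1.83, 1.49, 3.42 and 1.51. The top subunit was then Psma3 in both tdTomato libraries and Psma5 in male GFP. By transcript length, the highest and the lowest subunit lay 114-fold apart in female GFP (Psma6 at 436 and Psmd3 at 3.83 CPM per kilobase). They lay 63.7-fold apart in female tdTomato (Psmb6 and Psmd13) and 119-fold apart in male tdTomato (Psmb6 and Psmd13). In male GFP they lay at least 1556-fold apart, from Psmb3 at 231 CPM per kilobase to Psmd3 at 0, set at 3 counts. The middle of the distribution widened too, with an interquartile fold of 17.4 in male GFP against 3.02 to 4.39 in the other libraries.

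The spread of the subunits' ratios between libraries was set beside that of genes in the same range of mean level, as a description with no test. That range, 14.2 to 315 CPM, held 6927 tested genes, called genes of the same level here and below. They include the 31 subunits, and only the ends of the range are matched, not the levels within it. The SD of the subunits' log2 ratios was 0.75 between male and female tdTomato and 1.02 in the female pair, against 1.52 and 2.64 over the 6927 genes. In the male pair it was 3.41 against 3.90, and between male and female GFP 3.12 against 4.53. Subunits within 2-fold numbered 24 of 31 (77.4%) between the tdTomato libraries and 19 (61.3%) in the female pair, against 65.0% and 45.6% of the genes of the same level. In the male pair they numbered 9 (29.0%, against 27.3%), and between the GFP libraries 7 (22.6%, against 25.2%). Across the 31 subunits, which are not independent replicates and share each library's depth and amplification, Pearson's r of log2 levels was 0.82 between the tdTomato libraries, 0.72 within the female and 0.09 within the male pair, against 0.63, 0.39 and 0.16 over genes of the same level. Between the GFP libraries it was 0.31, against 0.07. Spearman's rho of the GFP over tdTomato ratio with transcript length was -0.13 in each pair.

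**Figure D4:**
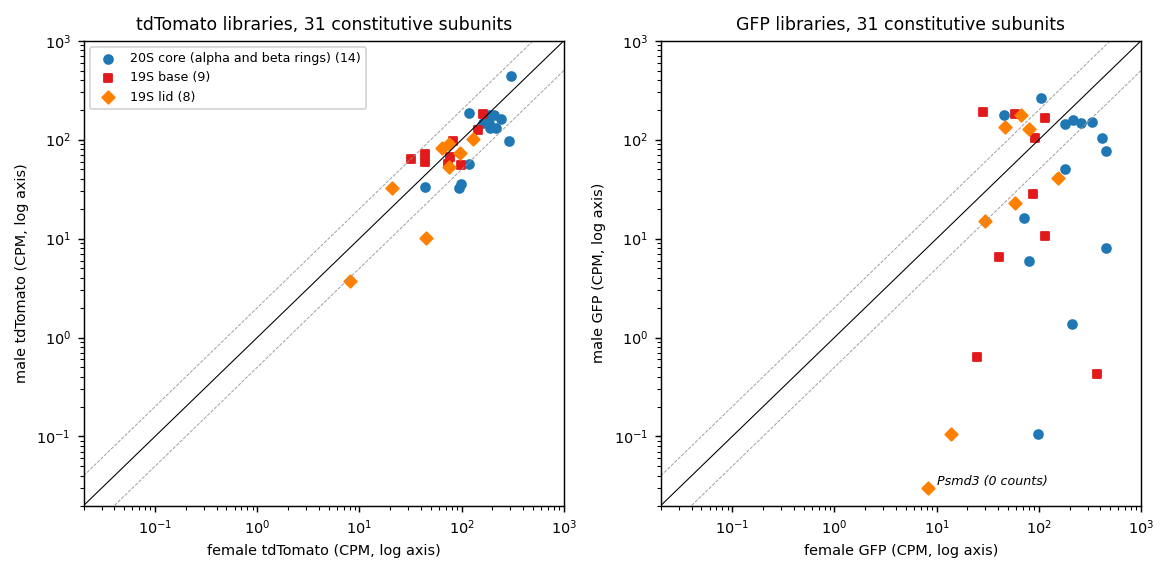
Levels of the 31 constitutive subunits in CPM on log axes, in the male against the female tdTomato library (left) and in the male against the female GFP library (right); each point is 1 gene, the solid line marks equal levels, dashed lines 2-fold, and Psmd3, at 0 counts in male GFP, is drawn near the lower edge. The points of the tdTomato libraries follow the line (r = 0.82), and those of the GFP libraries scatter widely on both sides of it, 22 below and 9 above (r = 0.31, with genes at fewer than 3 counts set at 3 in both values).

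Counts at or near 0 fell mostly in male GFP. Of the 47 genes, 4, 1, 10 and 0 had 3 counts or fewer. Among the 46 tested these were 3, 0, 9 and 0, which is 6.52%, 0.0%, 19.6% and 0.0%, against 19.4%, 2.68%, 33.1% and 3.59% of all tested genes. Of the constitutive subunits, 3 of 31 were at that limit in male GFP (Psmb2, Psmd3 and Psmd8) and 0 in female GFP, against 21.4% and 7.98% of genes of the same level. Besides these 3, the genes at 3 counts or fewer in male GFP were Psmb8, Psmb9, Psmb10, Psmd10, Psmg4, Psme2 and Psmf1, 6 of them at 0.

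Activators open the core without the ATPase cap. Psme1 and Psme2 (ENSMUSG00000079197) encode the alpha and beta subunits of the interferon-inducible PA28, and Psme2 measured 49.3, 111, 0.106 and 60.4 CPM. It was 2.26-fold lower in female GFP (2.06 to 2.48) and stood at 1 count in male GFP against 839 in male tdTomato. Its values are uncertain because Psme2b, a near copy, had up to 21.9 estimated counts and could share reads. Per length, Psme1 made up 1.77% of the PA28 transcripts in female GFP, 24.7% in female tdTomato and 50.2% in male tdTomato, and in male GFP Psme2 was too low for a share. Psme1 overlaps Emc9 on the other strand.

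Psme3 and Psme4 encode nuclear activators, PA28gamma and PA200. Psme3 measured 4.59, 8.56, 17.2 and 30.4 CPM, 1.86-fold lower in female GFP (1.36 to 2.59) and 1.76-fold lower in male GFP (1.47 to 2.13). The 2 pairs were close for Psme3, the mean log2 ratio being -0.84 ± 0.04 (SD, n = 2 pairs). Psme4 (ENSMUSG00000040850) measured 143, 124, 876 and 111 CPM, so 3 libraries lay close and male GFP stood apart. It was 1.15-fold higher in female GFP (1.08 to 1.23) and 7.87-fold higher in male GFP (7.46 to 8.32). Its 8230 counts in male GFP were the highest of any member in any library.

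Assembly chaperones guide the rings together and leave before the particle is finished. The 3 chaperones of the base were all lower in GFP in both pairs. Psmd5 measured 0.871, 5.15, 0.532 and 8.20 CPM, lower by 5.91-fold (3.13 to 12.3) and 15.4-fold (6.41 to 48.4). Psmd9 measured 8.32, 16.2, 1.28 and 10.6 CPM, lower by 1.95-fold (1.54 to 2.47) and 8.33-fold (4.63 to 16.5). Psmd10 was at 0 in both GFP libraries and passed the filter on low counts through tdTomato alone. At least 2-fold lower in both pairs were 2 of the 3, where 22.9% of all tested genes were. All tested genes also leaned lower in GFP, with median log2 ratios of -0.27 and -1.0, and the 3 chaperones were at low levels of up to 16.5 CPM. Chaperones of the core differed more among themselves. Psmg1 was even, at 32.6, 21.5, 25.4 and 29.8 CPM, and Psmg2 measured 44.8, 44.1, 1.81 and 35.9 CPM. Psmg3, the lowest per length, was higher in GFP in both pairs, at 7.21, 3.61, 3.73 and 0.504 CPM, and Psmg4, the highest per length, measured 29.1, 32.8, 0 and 12.4 CPM.

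The second comparison set male against female within each colour. Between the GFP libraries 23 of 46 members (50.0%) were lower in the male library by 2-fold or more and 8 (17.4%) higher, against 40.4% and 27.9% of all tested genes. Between the tdTomato libraries 8 (17.4%) were lower and 3 (6.52%) higher, against 21.6% and 20.6%. At least 2-fold lower in male in both colours were 3 members, Psma1, Psmb2 and Psmg4, where 10.3% of all genes were. At least 2-fold higher in both were 2, Psmc4 and Psme3, where 6.28% of genes were, and Psmc4 stood at the limit between the tdTomato libraries, with a log2 ratio of 1.00. With scaling computed over every gene with at least 1 count, 5 were lower and 1 higher. Psma1, an alpha ring gene, measured 457 and 292 CPM in the female libraries and 77.2 and 97.8 in the male ones, without overlap. Psme3 went the other way, with 4.59 and 8.56 CPM in the female libraries and 17.2 and 30.4 in the male ones.

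For sex, the quasi-likelihood test of edgeR, with Benjamini-Hochberg adjustment, called 0 members and 0.0% of all genes, and at the unadjusted 0.05 level it gave 0 members and 1.74% of genes. Those 2 values rest on single libraries, since leaving out male tdTomato raised both, in a fit with 1 library in an arm. DESeq2 called 0 of 45 members and 0.966% of genes, its smallest adjusted p of a member being 0.261, and limma-voom called 0 members. Since 1 female sample stands against a pool of 2 male samples, these values measure a difference of suspensions as much as of sexes.

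The partners of the particle were followed through a list of 28 genes of ubiquitin supply, shuttle factors, deubiquitinases and transcriptional control, of which 27 were matched and tested. Lower in GFP by 2-fold or more in both pairs were 2 of them, Usp14 and Nploc4, and 1, Zfand2a, was higher, where 22.9% and 5.17% of all tested genes were. The median log2 ratios were 0.12 for the female and -0.30 for the male pair, and edgeR, at the adjusted and at the unadjusted 0.05 level, and DESeq2 called 0 genes of the list. Usp14, a deubiquitinase of the base, measured 5.07, 103, 17.8 and 89.1 CPM, while Uchl5, another deubiquitinase bound to the particle, measured 188, 102, 470 and 113. Nfe2l1, the transcription factor that restores proteasome genes when the particle is blocked, measured 44.3, 44.3, 109 and 89.2 CPM. Ngly1, the glycanase that activates it, measured 0.158, 8.56, 213 and 2.23 CPM. The ubiquitin gene Ubb was among the most abundant of the list, at 2596, 1345, 1034 and 1269 CPM.

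A list of 18 genes of the interferon response and antigen presentation was set beside the immunoproteasome genes, and 12 of it were tested. Of these, 4 were lower in GFP by 2-fold or more in both pairs (among them H2-D1, H2-K1 and Ifit3) and 0 higher, where 22.9% and 5.17% of all tested genes were. Ifit3 had 0 counts in both GFP libraries and passed the filter through tdTomato alone. The list had median log2 ratios of -0.57 and -3.13. With edgeR 0 passed and 1 was lower in GFP at the unadjusted 0.05 level, against 8.33% of all genes, and DESeq2 called 0. H2-K1, a classical class I heavy chain, measured 35.9, 120, 17 and 164 CPM, with both GFP libraries below both tdTomato libraries. The interferon-induced GTPase gene Gbp2 was at 0, 0.0669, 0 and 35.2 CPM. The list had no common order of the libraries. Irf7, an interferon regulatory factor, was highest in female GFP, at 12.5, 1.87, 0 and 4.53 CPM, and Tapbp, the peptide-loading chaperone tapasin, was highest in male GFP, at 20.7, 31.3, 72.4 and 24.2 CPM. B2m, the light chain of class I molecules, was highest in female tdTomato, at 407, 595, 171 and 433 CPM.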

How the data were processed

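Polyadenylated RNA was copied with SMART-Seq v4, which does not mark strand, amplified by PCR without molecular identifiers, fragmented with Tn5 and read as pairs, per the labels' protocols. The submitters' processing notes name fastp, HISAT2, StringTie and GRCm39, with versions, counting program and annotation release not given in the sources used here. What the authors deposited are expected counts (estimated counts, not scaled between libraries), which were rounded here. For 20 members at least 1 library had a value that was not whole (tolerance 1e-06).

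Symbols came by Ensembl identifier from an annotation of an earlier build (76.4% of genes matched). The protein-coding class, the transcript and coding lengths and the overlaps with other genes also came from that earlier build. Without strand, 11 members that overlap a gene on the opposite strand and 3 that overlap one on the same strand carry uncertain counts. Promoter windows are RefSeq's on GRCm38.p6; where a gene had 2, the first was used for the motif shares.

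The level is CPM after TMM scaling (factors 0.923, 1.07, 0.931 and 1.08, with the female libraries first and GFP before tdTomato). Log2 ratios used a prior count of 2, and folds none. The filter on low counts was filterByExpr of edgeR (minimum 10 counts), which Psmb9 did not pass. The main test was the quasi-likelihood F test of edgeR 4.0.16 in R 4.3.3, with the suspension as a block, adjusted over 15055 genes at 0.05. Its common dispersion was 1.47. Alternatives were DESeq2 1.42.0 and voom of limma 3.58.1, as were other scalings, filters, prior counts and leaving out each library. Where each side is 1 library there is no test, only a count of genes 2-fold or more apart.

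The members, the lists and the rule for naming genes were chosen with earlier results of these data known. The rule named the catalytic subunits, the activators, the highest and lowest member of each role per length, the largest ratios and every member at 3 counts or fewer. Genes withheld from the text are not reported here, although counts and sums over lists include them.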

Additional observations from a re-analysis of the deposited data

Results flagged for a closer look

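For 6 members the ratio of GFP over tdTomato went 2-fold or more one way in the female pair, and as much the other way in the male pair. With 1 library for each sex and colour, the difference between the pairs was not tested. The female-pair log2 ratio minus the male-pair one was 9.1 for the ATPase Psmc6, 8.44 for the immunoproteasome subunit Psmb10, 5.28 for the alpha subunit Psma6 and 2.07 for the ATPase Psmc2, all higher in female GFP and lower in male GFP. It was -3.6 for the ATPase Psmc1 and -3.42 for the beta subunit Psmb3, which were lower in female GFP and higher in male GFP. For Psmc6 and Psmb10 the male side rests on 4 and 0 counts in male GFP.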

How the results depend on the processing

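Restricting the members to the 31 constitutive subunits left 5 of the 11 genes lower in GFP by 2-fold or more in both pairs and narrowed the SD of the female-pair log2 ratios from 1.72 to 1.02. With DESeq2's size factors 3 members, in place of 1, were at least 2-fold higher in GFP in both pairs, and with library totals the female-pair median was -0.18, in place of 0.04. With scaling over every gene with at least 1 count, 5 members were lower in male in both colours, in place of 3, and 1 was higher, in place of 2. DESeq2 called 2 members between the colours, where edgeR called 0. The cause of these changes was not tested. The other 55 values recomputed for these results kept their direction and their side of the threshold, or stayed within 1.5 times a count. Without the block, with every library kept, 0 members were called for both comparisons, but so were 0 of all 15055 genes. Leaving out each library in turn leaves 1 library in an arm, assumed to vary like the others. Neither kind of fit says anything about stability. At the unadjusted 0.05 level the number of members changed with the library left out, between the colours and between the sexes, as did the number over all genes. Depth limits low members, since 3 counts were worth 0.201 to 0.319 CPM and male GFP was the shallowest library. No paired analysis beyond the block by suspension was possible because each combination of sex and colour had 1 library.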
